A study of Mus musculus with 2 samples.

Results

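The 10 genes described here, Etv1, Etv4, Etv5, Spry1, Spry2, Spry4, Dusp4, Dusp5, Dusp6 and Spred1, are outputs and feedback inhibitors of ERK signalling, taken by symbol from a deposited table of 18919 genes. They were measured by RNA sequencing of intestine from C57BL/6 mice aged 2 months that carried the APCmin mutation, which truncates the tumour suppressor Apc. The control library came from APCmin mice and the knockout library from APCmin; Setd2IEC-/- mice, in which Setd2, which encodes the histone H3 lysine 36 trimethylase, was deleted in the intestinal epithelium. Each library was made from the mixed RNA of 3 littermates, so there was 1 library per genotype, no difference below has a replicate check, and no p-value was computed. The driver of the deletion is not given in the sources used here, and both groups shared the APCmin mutation, so no library shows the intestine without it.

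ERK signalling runs from growth factors through receptor tyrosine kinases, the small GTPase Ras and the kinases Raf and MEK to ERK. Active ERK raises transcription of the PEA3 group of ETS factors, encoded by Etv1, Etv4 and Etv5, and of inhibitors that limit the same pathway. Sprouty and Spred proteins act near the receptor and at the Ras to Raf step, and dual-specificity phosphatases remove the activating phosphates from ERK itself. In the intestinal crypt, EGF family ligands signal through this pathway to sustain proliferation, and transcripts of these feedback genes are commonly read as a sign of its activity. RNA levels do not report ERK phosphorylation, which was not measured.

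Promoter windows of 300 bases, from 250 bases before to 50 after the RefSeq start (GRCm38.p6, the coordinates of mm10), were held for 7 of the 10 genes in 9 windows. Etv4, Spry4 and Dusp4 had none. Etv5 is shown because its difference was the widest of the 10, and Dusp6 because it was the most abundant gene at a near-equal level. Spred1 is shown because it held more ETS-type matches than the other genes with a window. The ends of the Spred1 window and of the Etv5 window not shown matched no GENCODE M21 transcript of their gene. Capitals mark matches on either strand to the ETS core with its flank, CGGAAG, or to CCAAT. The CCAAT motif was added after the sequences had been seen.
Etv5, chr16:22439521-22439820, minus strand: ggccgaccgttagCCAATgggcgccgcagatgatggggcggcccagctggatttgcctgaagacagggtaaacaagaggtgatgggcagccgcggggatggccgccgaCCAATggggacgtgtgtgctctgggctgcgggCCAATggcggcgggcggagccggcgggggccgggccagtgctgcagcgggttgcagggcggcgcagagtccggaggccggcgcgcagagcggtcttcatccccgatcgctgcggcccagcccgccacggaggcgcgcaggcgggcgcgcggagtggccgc
Dusp6, chr10:99262981-99263280, plus strand: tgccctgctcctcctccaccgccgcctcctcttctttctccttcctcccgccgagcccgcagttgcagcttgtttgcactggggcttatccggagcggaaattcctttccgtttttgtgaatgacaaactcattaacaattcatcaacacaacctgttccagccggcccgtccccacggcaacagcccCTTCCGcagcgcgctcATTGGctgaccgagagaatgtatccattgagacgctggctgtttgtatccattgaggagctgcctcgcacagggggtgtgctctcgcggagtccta
Spred1, chr2:117120821-117121120, plus strand: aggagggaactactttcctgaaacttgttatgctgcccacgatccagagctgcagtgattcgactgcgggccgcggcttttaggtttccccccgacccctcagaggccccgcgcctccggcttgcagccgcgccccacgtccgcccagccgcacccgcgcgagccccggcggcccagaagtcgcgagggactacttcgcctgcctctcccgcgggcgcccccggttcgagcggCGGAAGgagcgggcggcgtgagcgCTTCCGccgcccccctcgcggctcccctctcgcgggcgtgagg

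The ETS letters were present in 2 of the 9 windows, those of Dusp6 and Spred1, against 16.9% of all 32851 windows in the table. CCAAT was present in 4 of the 9 windows, against 37.4% of all windows. The Etv5 window above held 3 of these matches, at 237, 142 and 110 bases before the start (3.37% of all windows held 3 or more), and the other Etv5 window held 1. The AP-1 letters TGANTCA (7.81% of all windows), the cyclic AMP element TGACGTCA (1.79%) and the TCF letters CTTTGAT (3.73%) were in 0 of the 9. No 2 matches overlapped. Base composition differed widely, from 44% G and C in a window of Etv1 to 74% in the Etv5 window above, around a median of 52.67% over all windows. These matches describe letters in short windows and were not tested for binding.

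Levels are given in FPKM, fragments per kilobase of transcript scaled to the mapped total, which allow genes of different lengths to be compared within a library. Paired values are given with the control first and the knockout second. A gene counted as measured when it reached 1 FPKM in either library, as 13253 genes did, among them 9 of the 10 members. All 9 also reached 1 FPKM in the control library, so none passed through the knockout library alone. The log2 ratio is that of knockout over control after 1 FPKM was added to each, which understates the difference of low genes, and 2-fold means a log2 ratio of 1 or more, or of -1 or less. The ratio of expected counts, scaled to library totals of 8809678 (control) and 8646358 (knockout), is given with a 95% exact (Clopper-Pearson) interval that covers counting error only. Setd2 had 513 counts against 254 in the knockout, a ratio of 0.504 (0.432 to 0.587). All 9 markers of intestinal epithelium in the list used were present, from 56.3 FPKM for Cdx2 to 3818 for Fabp2 in the control library.

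The members ranged from Etv1, below 1 FPKM in both libraries, to Dusp6, above 40 in both. Of the 9 measured members, 1 was at least 2-fold higher in the knockout library and 0 were lower, against 2.78% and 1.28% of all measured genes. The gene past 2-fold was Etv5. In bulk tissue, more or fewer cells of a type and more or less RNA per cell cannot be told apart. The interval of the count ratio lay above 1 for 5 members, Etv4, Etv5, Spry1, Spred1 and Dusp4, and below 1 for 0; over all measured genes the shares were 28.0% and 12.5%. For the other 5 genes of the 10 the interval included 1. All 9 had a log2 ratio above 0 as deposited, where 62.5% of measured genes did, and 7 after scaling to a median ratio of 1, which turned Dusp6 and Spry2 below 0. The median log2 ratio of the 9 was 0.29, beside 0.08 for all measured genes, and their log2 ratios ran from 0.02 to 1.69.

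**Figure D1:**
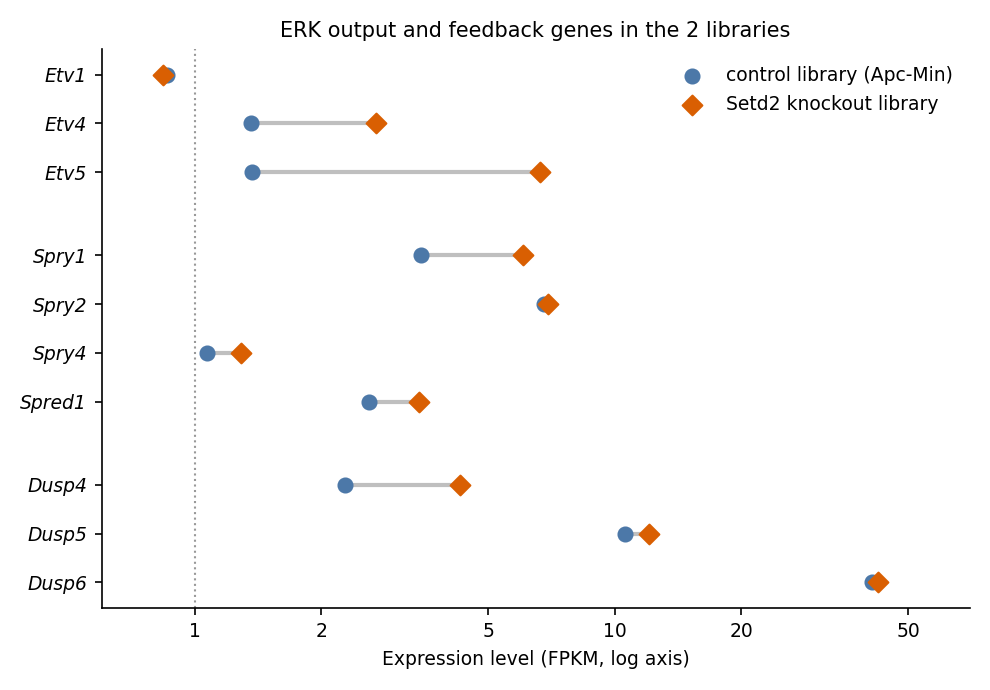
Level of each gene in FPKM on a log axis, 1 row per gene grouped by role, with circles for the control library and diamonds for the knockout library; each point is 1 library and the dotted line marks 1 FPKM. Etv5 goes from 1.37 to 6.64 while Dusp6, Spry2 and Etv1 nearly coincide.

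The PEA3 transcription factors were unequal, with Etv5 the most different of the 10 members and Etv1 at nearly the same level in both libraries. Etv5 (gene identifier 104156, chromosome 16, 22381313 to 22439570, minus strand) had 47 expected counts in the control and 223 in the knockout, which gave levels of 1.37 and 6.64 FPKM. Its count ratio was 4.83 (3.52 to 6.77) and its log2 ratio 1.69, and 155 of the 13253 measured genes had a higher one. The level of Etv5 exceeded that of 10.9% of measured genes in the control and of 43.4% in the knockout.

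Etv4, known as Pea3, the founder of the group (chromosome 11, 101769747 to 101785310), had 28 and 55 counts, or 1.36 and 2.70 FPKM. Its count ratio was 2.00 (1.25 to 3.28), but its log2 ratio of 0.65 after the added FPKM was within 2-fold. Etv1 (chromosome 12, 38780082 to 38870483) is the member that in the gut wall marks interstitial cells of Cajal, the pacemaker cells of the muscle layer. Etv1 had 31 and 30 counts, or 0.86 and 0.84 FPKM, and a count ratio of 0.986 (0.577 to 1.68), so a difference of 1.5-fold in either direction was not excluded at this depth.

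Etv5 and Etv4 were at nearly the same level in the control library, with a quotient of 1.01 in FPKM, and in the knockout library Etv5 was 2.46 times Etv4. The ratio of their 2 count ratios, which does not depend on how the libraries are scaled, was 2.42 (1.33 to 4.33). Against Etv1, that of Etv5 was 4.90 (2.59 to 9.23). For Etv4 against Etv1 it was 2.03 with an interval of 0.976 to 4.22 that included 1. The share of Etv5 in the summed PEA3 FPKM was 38.2% in the control and 65.2% in the knockout. The summed counts of the 3 genes were 106 and 308, a ratio of 2.96 (2.37 to 3.73), most of it from Etv5.

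**Figure D2:**
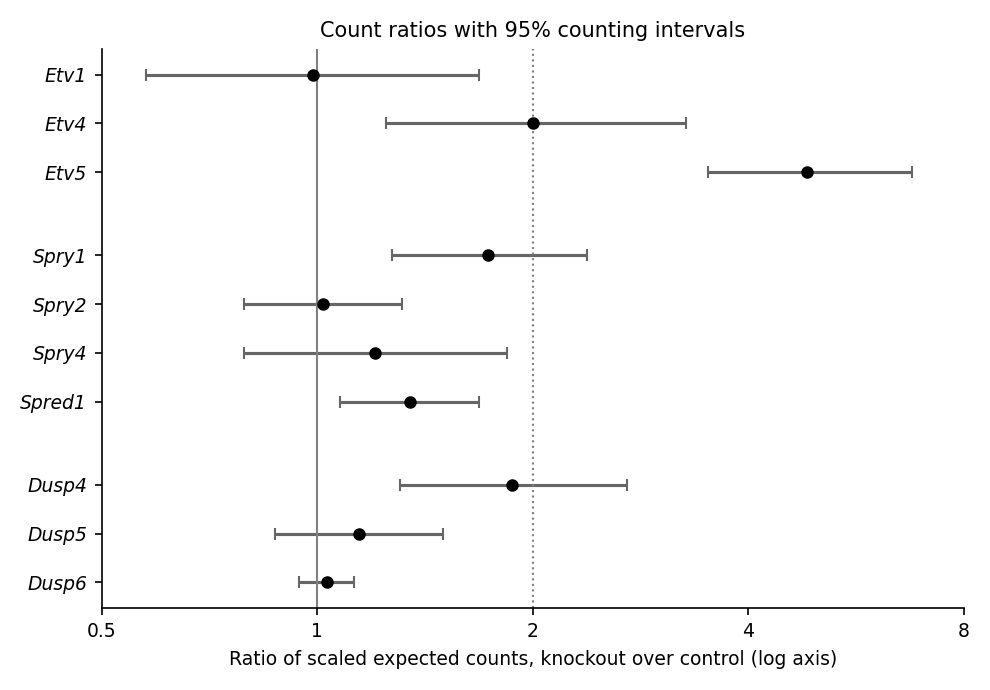
Ratio of expected counts scaled to the library totals, knockout over control, on a log axis, 1 row per gene; bars are 95% exact counting intervals, the solid line marks 1 and the dotted line 2. The interval of Etv5, 3.52 to 6.77, overlaps that of no other gene shown, and that of Dusp6, 0.945 to 1.12, is the narrowest.

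Among the Sprouty and Spred inhibitors, the intervals of Spry1 and Spred1 lay above 1, and those of Spry2 and Spry4 included 1. Compared with each other, only Spry1 and Spry2 differed beyond counting error, so these are not 2 separate groups. Spry1 (chromosome 3, 37639947 to 37644599) had 67 and 114 counts, or 3.46 and 6.03 FPKM, and a count ratio of 1.73 (1.27 to 2.38). Spred1, whose EVH1 domain protein recruits neurofibromin to Ras (chromosome 2, 117121071 to 117182279), had 143 and 189 counts, or 2.60 and 3.41 FPKM. Its ratio of 1.35 had an interval of 1.08 to 1.69, which reached 0.998 when the libraries were scaled by TMM. Whether the interval of Spred1 lay above 1 therefore depended on the scaling.

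Spry2, the Sprouty with the highest level of the 3 in both libraries (chromosome 14, 105891947 to 105896819), had 126 counts in each library, or 6.79 and 6.92 FPKM, and a ratio of 1.02 (0.790 to 1.31). Spry4 (chromosome 18, 38586247 to 38601347) had 44 and 52 counts, or 1.07 and 1.29 FPKM, and a ratio of 1.20 (0.790 to 1.84). The level of Spry1 was 0.510 times that of Spry2 in the control and 0.871 times in the knockout, per length, and the ratio of their count ratios was 1.70 (1.13 to 2.56). The other 5 pairs of these 4 genes had intervals that included 1. Their summed counts were 380 and 481, a ratio of 1.29 (1.13 to 1.48).

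Among the phosphatases, the least abundant gene showed the difference. Dusp4, a nuclear phosphatase also known as MKP2 (chromosome 8, 34807610 to 34819894), had 49 and 90 counts, or 2.28 and 4.27 FPKM, and a ratio of 1.87 (1.31 to 2.71). Dusp5, a nuclear phosphatase with ERK as its main substrate (chromosome 19, 53529145 to 53541809), had 106 and 119 counts, or 10.55 and 12.07 FPKM, and a ratio of 1.14 (0.873 to 1.5). Dusp6, the cytoplasmic ERK phosphatase MKP-3 (chromosome 10, 99263231 to 99267489), had 1024 and 1036 counts, or 41.06 and 42.34 FPKM. Its ratio of 1.03 (0.945 to 1.12) carries the tightest bound of the 10, and a difference of 1.5-fold lies outside it.

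Dusp4 differed from both relatives beyond counting error: the ratio of its count ratio to that of Dusp6 was 1.82 (1.25 to 2.65) and to that of Dusp5 1.64 (1.04 to 2.59). For Dusp5 against Dusp6 it was 1.11 (0.834 to 1.48). Over the 12 pairs within the 3 roles, 5 intervals excluded 1, without adjustment for their number. Dusp6 alone gave 57.5% (control) and 48.9% (knockout) of the members' summed FPKM. The summed counts of the 10 genes were 1665 and 2034, a ratio of 1.24 (1.17 to 1.33), which was 1.14 (1.07 to 1.22) without Etv5 and 1.59 (1.44 to 1.75) without Dusp6.

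**Figure D3:**
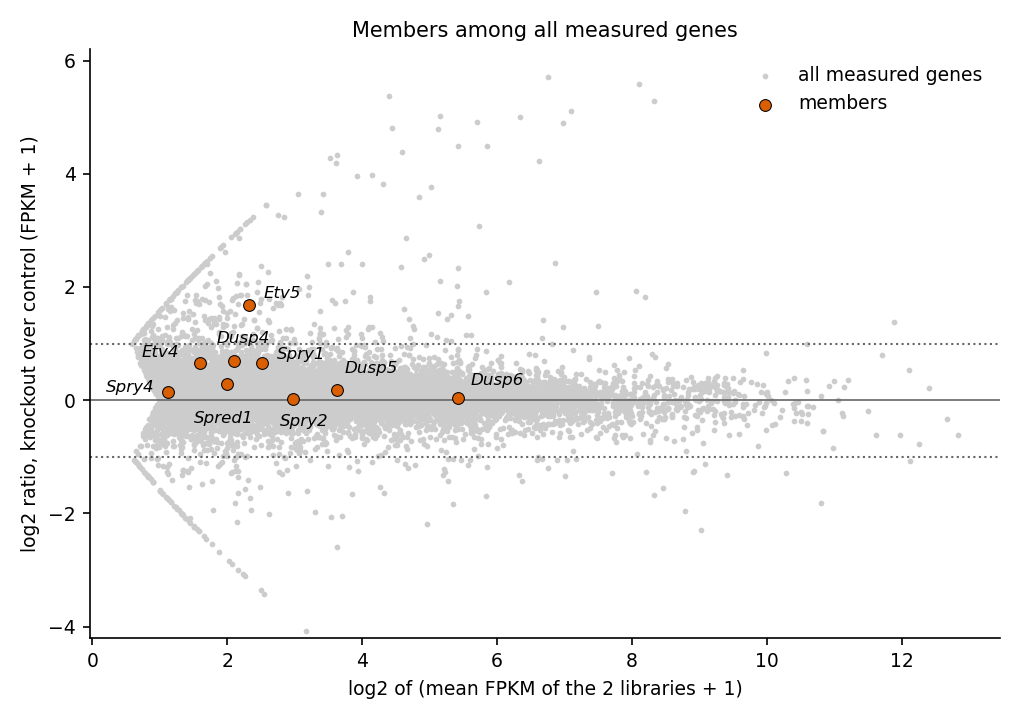
Log2 ratio of knockout over control (FPKM + 1) against log2 of the mean FPKM of the 2 libraries plus 1, with 1 grey point per measured gene and orange points for the 9 measured members; dotted lines mark 2-fold. Etv5 lies above the upper line at 1.69, Etv4, Spry1 and Dusp4 lie between 0.65 and 0.68, and Dusp6 and Spry2 lie near 0.

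At a threshold of 1.5-fold after the added FPKM, Dusp4, Spry1 and Etv4 joined Etv5, so 4 members were past it, as were 8.01% of all measured genes. Scaled to a median ratio of 1, Etv4 and Spry1 fell short of 1.5-fold and 2 members were past it, a combination tried after seeing the data. The log2 ratios of 0.68 for Dusp4, 0.66 for Spry1 and 0.65 for Etv4 were close to each other, at ranks 765, 838 and 860 of the 13253. Scaling by TMM (a trimmed mean of the ratios of all genes) lowered every log2 count ratio by 0.11. Relative to that shift, Dusp6 (0.955) and Spry2 (0.944) turned to ratios below 1, and Etv4, Etv5, Spry1 and Dusp4 kept intervals above 1, with 4.48 (3.26 to 6.27) for Etv5.

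Transcript models bear on a few of these values. The authors' length for Dusp5 was 1155 nt, a multiple of 3 and well short of the 2427 nt of Dusp4 and 2814 nt of Dusp6, so its FPKM rests on a shorter model. For Spred1 the length averaged over transcripts was 6165 nt (control) and 6319 nt (knockout). Exons of Spry1 and of Dusp5 overlap a gene annotated on the opposite strand (Gm42922 and AC137853.2), and as no strand setting is given in the sources used here, reads of the partners cannot be told apart.

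Upstream of the members, the EGF family ligands Ereg, Btc and Areg were higher in the knockout library, while no core kinase was past 2-fold. Of 11 measured ligands, 1 was at least 2-fold higher and 0 lower, with a median log2 ratio of 0.12. The interval lay above 1 for 3 of the 11 and below 1 for 0, and 6 had a log2 ratio above 0. For all measured genes, 28.0% of intervals lay above 1 and 12.5% below, and 62.5% of log2 ratios were above 0. The share at least 2-fold higher was 2.78%. Ereg, epiregulin, was at 1.55 FPKM and 4.57, a count ratio of 2.95 (2.17 to 4.06), and Btc, betacellulin, at 2.04 and 4.13, a ratio of 2.03 (1.43 to 2.87). Areg, amphiregulin, the most abundant ligand, had levels of 18.14 and 27.54, with a ratio of 1.52 (1.26 to 1.83). Hbegf (9.60 and 8.34) and Fgf9 (1.52 and 1.27) had the lowest ratios of the measured ligands, with intervals that included 1.

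Receptor tyrosine kinases went both ways, with 0 of 13 past 2-fold, 7 with an interval above 1, 2 below 1 and a median of 0.30. Over all measured genes, 28.0% of intervals lay above 1 and 12.5% below. Fgfr4 (0.64 and 1.02) was measured through the knockout library only. Pdgfra, a receptor of mesenchymal cells, was at 5.57 and 9.70 FPKM, and Kit, the stem cell factor receptor, at 2.83 and 5.04. Erbb3, the most abundant receptor of the list, was at 75.30 and 49.35, a count ratio of 0.655 (0.617 to 0.696), and Erbb2, its signalling partner, at 29.90 and 27.61.

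Adaptors and Ras activators had 0 of 11 past 2-fold and a median of -0.15, with Grb2, which links receptors to Sos, at 35.00 and 32.47 FPKM. Among these, Frs2, the adaptor of FGF receptors, was at 6.49 and 5.31 and Frs3 at 2.07 and 1.41, while Rasgrp1 (1.24 and 1.40) and Shc1 (25.99 and 27.76) had the highest ratios. Of 14 measured genes of the Ras, Raf, MEK and ERK core, 0 were past 2-fold and the median was 0.02. Mapk3, which encodes ERK1, was at 179.7 and 207.0 FPKM, Map2k2, which encodes MEK2, at 122.5 and 103.0, and Lamtor3, a scaffold for MEK and ERK, at 21.70 and 27.76. Nras was at 11.44 and 13.34 and Araf at 27.94 and 25.41.

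Other inhibitors of the pathway had 1 of 20 measured genes at least 2-fold higher, 0 lower and a median of 0.04. For all measured genes the 2-fold shares were 2.78% and 1.28%. Intervals lay above 1 for 4 of the 20, Dusp14 among them, and below 1 for 3, beside 28.0% and 12.5% of all measured genes. The gene past 2-fold, Dusp14, had 2 and 22 counts, a ratio of 11.2 with an interval of 2.76 to 98.3, and counted as measured through the knockout library only. Lrig1, which restrains ErbB receptors and marks crypt progenitors, had 8.07 and 11.88 FPKM and a ratio of 1.47 (1.28 to 1.69). Dusp1, a stress-induced phosphatase, was lower, at 12.97 and 9.60, a ratio of 0.740 (0.601 to 0.910), and Dusp2 was at 2.17 and 1.07 from 31 and 15 counts. Pebp1, the Raf kinase inhibitor protein, was at 116.5 and 136.1.

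Other genes induced by ERK went both ways, with 7 of 19 intervals above 1, 6 below 1, 1 gene past 2-fold and a median of 0.13. Of the 7 above 1, Fosl1 (8 and 19 counts) counted as measured through the knockout library only. The shares over all measured genes were 28.0% above 1 and 12.5% below. Plaur, the urokinase receptor, had 21 and 98 counts, or 1.59 and 7.56 FPKM, and a ratio of 4.75 (2.95 to 8.02), beside the 4.83 of Etv5. Phlda1, often read with the Sprouty and Dusp genes, had levels of 9.47 and 18 FPKM and a ratio of 1.90 (1.57 to 2.31). The immediate-early gene Atf3 was at 26.12 and 15.82, a ratio of 0.606 (0.519 to 0.705), and Fosl2, an AP-1 subunit, at 44.90 and 35.30, a ratio of 0.786 (0.739 to 0.836). Emp1, the most abundant of the list, was at 163.4 and 162.7.

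Of 17 measured ETS factors outside the PEA3 group, 0 were past 2-fold and 12 had a log2 ratio above 0 (9 after scaling to a median ratio of 1), with a median of 0.11. As deposited, 62.5% of all measured genes had a log2 ratio above 0. Elf3, an epithelial ETS factor and the most abundant, had 148.8 and 215.6 FPKM and a ratio of 1.45 (1.38 to 1.53). Ehf, also epithelial, was at 8.47 and 13.08, and Elk3, a ternary complex factor, at 2.12 and 3.84, a ratio of 1.81 (1.37 to 2.41). Fli1, a factor of blood and endothelial cells, was at 1.66 and 0.87 from 47 and 24 counts and was measured through the control library only, and Ets1 at 7.41 and 6.71. None of the 17 came as far from equal levels as Etv5.

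**Figure D4:**
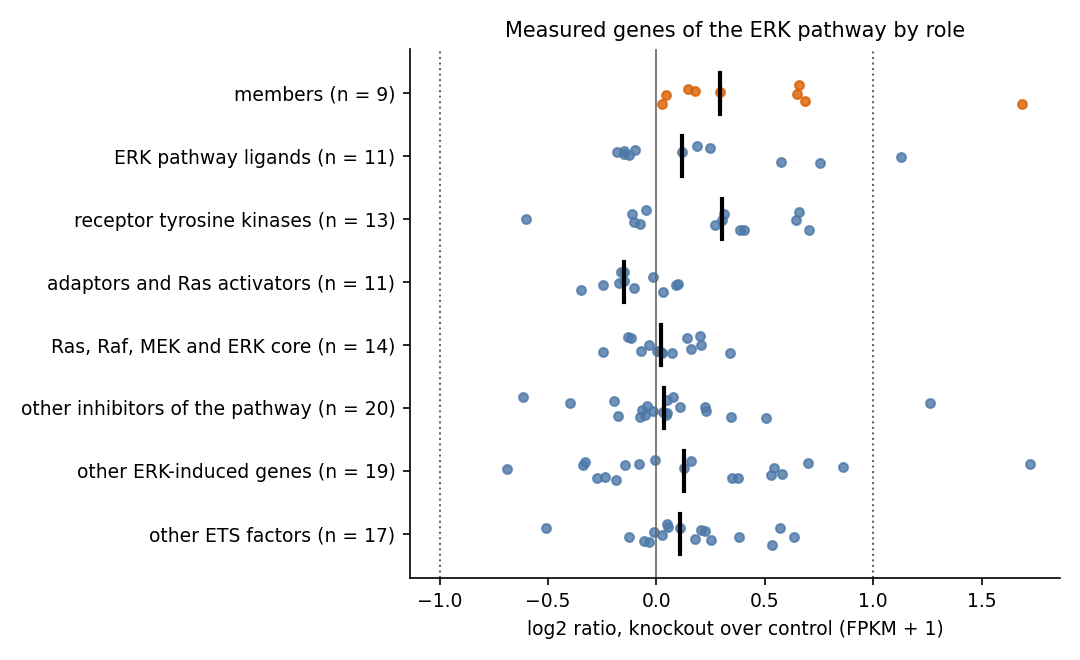
Log2 ratio of knockout over control (FPKM + 1) for each measured gene, 1 row per group of the ERK pathway with its number of measured genes; points are genes, the black bar is the group's median and dotted lines mark 2-fold. The members' median of 0.29 is close to the 0.30 of the receptors, and the core genes lie between -0.25 and 0.34.

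Transcripts of several cell types were also higher in the knockout library. Of 12 markers of crypt base stem cells, 11 had a log2 ratio above 0 and 3 were at least 2-fold higher. Over all measured genes these shares were 62.5% and 2.78%. The summed level of the 12 was 144.5 and 201.8 FPKM, and Znrf3 (0.82 and 1.58) counted as measured through the knockout library only. Ephb3 was at 2.09 and 9.94 FPKM, Cd44 at 5.58 and 13.80 and Axin2 at 5.59 and 12.90, while Lgr5 was at 1.59 and 2.37. All 12 proliferation genes were above 0, with sums of 185.2 and 287.0. Of 10 endothelial markers 9 were above 0 (41.15 and 53.68), as were all 10 fibroblast markers (166.4 and 201.2), of which 8 stayed above 0 after scaling to a median ratio of 1. None of the markers in these 4 lists was at 0 in a library. Their part in the differences of Etv5, Etv4, Spry1, Spred1 and Dusp4 was not tested.

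Pancreas, stomach and red cell transcripts also stood higher in the knockout library. All 14 exocrine pancreas markers were higher, with sums of 153.7 and 2834 FPKM, and none was at 0. Among 10 listed stomach markers, 3 were at 0 in the control library, and the sums were 13.44 and 162.2. The 6 red cell transcripts in the table summed to 66.06 and 240.0, with Slc4a1 at 0 in the control library. With these genes left out of the library totals the count ratio of Etv5 was 4.85 and that of Dusp6 1.03; RNA of the members brought by such tissue was not tested. Of 10 smooth muscle markers 7 had a log2 ratio below 0, with sums of 608.3 and 632.8 FPKM and a summed count ratio of 1.001 (0.977 to 1.03). Myl9 alone (134.5 and 161.01) rose by more than these summed levels did. The 5 markers of interstitial cells other than Etv1 included Kit (2.83 and 5.04) and Ano1 (2.14 and 3.40). Of 9 T cell markers 6 were below 0, while their sums were 189.2 and 203.6 FPKM with Gzma at 108.4 and 127.95. Summed levels were 785.9 and 915.3 FPKM for B and plasma cell markers, of which 7 of 10 were below 0. For myeloid cells the sums were 224.04 and 207.1, with Lyz2 at 107.7 and 76.97, while 7 of 10 markers were above 0. Enteric neurons and glia summed to 11.96 and 12.54, and the epithelial list to 10845 and 9088, with 4 of its 9 markers above 0 and 5 below.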

How the data were processed

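Per the labels' protocols, RNA was sequenced on a HiSeq, mapped to mm10 with BWA and Bowtie and quantified with RSEM; Bowtie2 is named in the submitters' processing notes, and versions are not given in the sources used here. The sample files hold the deposited expected counts, with decimals where RSEM divided reads among genes, and the deposited FPKM, to 2 decimals. The deposited series table repeats these FPKM, a gene missing from a sample file being entered as 0. The authors' transcript lengths were also read.

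With 1 library per group no test was made. Log2 ratios used a pseudocount of 1 FPKM and a filter of 1 FPKM in at least 1 library. Count ratios used totals of expected counts, rounded for the interval (scipy 1.17.1), and a floor of 3 counts corresponds to 0.341 CPM (control) and 0.347 CPM (knockout). Intervals and floors cover counting error only. Ratios of ratios have exact conditional intervals. Scaling alternatives came from edgeR 4.0.16 (TMM) and DESeq2 1.42.0 (size factors), and the interval routine was tested on simulated data. The members, 7 pathway lists and 14 marker lists were chosen with earlier results of these data known. Among the measured genes of each pathway list, the text names the 2 with the highest ratio, the 2 with the lowest and the most abundant. Other genes named, such as the stem cell markers, were chosen after their values were seen. Positions and promoter sequences came from RefSeq on GRCm38.p6, and overlaps from GENCODE M21.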

Additional observations from a re-analysis of the deposited data

How the results depend on the processing

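Etv5 was the 1 member past 2-fold, and 0 were lower, under pseudocounts of 0.1 and 0.01 FPKM, scaling by the median ratio, TPM, CPM, no filter and a filter of 5 FPKM. The log2 ratio of Etv5 ran from 1.62 to 2.27 over these settings. Under the filter of 5 FPKM, Etv5 and Spry1 passed through the knockout library only, so that the call kept there is no support. A threshold of 1.5-fold gave 4 members, and 2 when combined with scaling by the median ratio, an alternative chosen after seeing the data. The summed count ratio of 1.24 was 1.15 with TMM and 1.16 with DESeq2 size factors, both by construction, since they lower every ratio. The share of measured genes with an interval above 1 was then 17.8% and 18.8%, and of those below 1 20.7% and 19.7%. Dusp6 and Spry2 had log2 ratios from -0.05 to 0.06 and from -0.06 to 0.04, so that their signs depend on the scaling. Of the median log2 ratios, the lowest was 0.18 with a filter of 5 FPKM, where 5 members remained, and the highest 0.41 with CPM. No paired analysis was possible because each group had 1 library. Depth limits Etv1, Etv4, Spry4 and Dusp4 most, with 28 to 90 counts.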
